A study of Homo sapiens with 16 samples.

Results

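The genes described here are 10 heat shock and chaperone genes of the 23575 gene symbols in a count table of HL-60 cells, taken by their symbols. They comprise the transcription factor HSF1, the HSP70 proteins HSPA1A, HSPA8 and HSPA9, the HSP70 partners HSPH1 and DNAJB1, the HSP90 proteins HSP90AA1 and HSP90AB1, and the mitochondrial chaperonin HSPD1 with its lid HSPE1. All 10 symbols were found, and all 10 passed the filter on low counts. HL-60 is a human promyelocytic leukaemia cell line. It was used wild type, either differentiated to neutrophil-like cells (dHL-60) or undifferentiated (uHL-60), and lipoteichoic acid (LTA), an anchored polymer of the Staphylococcus aureus cell wall, was added or left out. Differentiated cells were exposed to LTA at 1 or 10 µg/ml or left untreated, and were collected after 4 or 24 h, with 2 libraries in each of these 6 groups. Undifferentiated cells were exposed to LTA at 1 µg/ml or left untreated for the same times, with 1 library in each of these 4 groups. The sources used here do not name the agent that differentiated the cells, and nothing in the labels says that the 2 libraries of a group came from separate cultures, so the p-values measure the spread between these libraries, which may be technical.

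Chaperones hold unfolded stretches of other proteins and let them fold. HSP70 proteins bind and release such stretches in an ATP-driven cycle, in which a J-domain partner such as DNAJB1 starts ATP hydrolysis and an exchange factor such as HSPH1 frees the ADP. HSP90 proteins take over later, and many of their clients are kinases of receptor signalling. HSPD1 and HSPE1 form a closed folding chamber inside mitochondria, where HSPA9 also pulls proteins in. When unfolded proteins build up, HSF1 forms trimers and binds heat shock elements, runs of the unit GAA in alternating orientation, upstream of chaperone genes. HSPA1A and HSP90AA1 are textbook heat-inducible forms, and HSPA8 and HSP90AB1 are their constitutive counterparts.

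The promoters below are shown because most of these genes are textbook targets of HSF1. Each is 250 bases before to 50 bases after a RefSeq start site in GRCh38.p14, 5′ to 3′ on the gene's strand, and capitals mark each pair of neighbouring inverted units, GAANNTTC or TTCNNGAA. Where a gene has several start sites, the window with the most such pairs is printed. HSPA1A lies at chr6:31815293-31815592 on the plus strand, HSPA8 at chr11:123062087-123062386 on the minus strand, and DNAJB1 at chr19:14518348-14518647 on the minus strand. HSP90AA1 lies at chr14:102086995-102087294 on the minus strand and HSP90AB1 at chr6:44247693-44247992 on the plus strand. HSPD1 at chr2:197499791-197500090 on the minus strand and HSPE1 at chr2:197500129-197500428 on the plus strand are neighbours on opposite strands. Their outermost gene starts lie 105 bases apart, and the printed window of HSPD1 belongs to another start inside the gene.
HSPA1A: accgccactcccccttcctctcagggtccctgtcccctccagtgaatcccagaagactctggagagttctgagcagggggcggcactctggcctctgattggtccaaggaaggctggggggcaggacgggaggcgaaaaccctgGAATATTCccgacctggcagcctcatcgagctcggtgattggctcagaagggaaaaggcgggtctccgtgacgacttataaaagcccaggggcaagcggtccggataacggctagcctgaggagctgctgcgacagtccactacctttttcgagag
HSPA8: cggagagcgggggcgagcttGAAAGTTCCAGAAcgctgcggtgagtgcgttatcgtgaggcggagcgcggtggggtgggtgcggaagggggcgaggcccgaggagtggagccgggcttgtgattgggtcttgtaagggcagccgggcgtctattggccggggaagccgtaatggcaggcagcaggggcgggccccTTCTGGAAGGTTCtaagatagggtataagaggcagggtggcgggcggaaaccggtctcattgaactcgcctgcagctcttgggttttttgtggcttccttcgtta
DNAJB1: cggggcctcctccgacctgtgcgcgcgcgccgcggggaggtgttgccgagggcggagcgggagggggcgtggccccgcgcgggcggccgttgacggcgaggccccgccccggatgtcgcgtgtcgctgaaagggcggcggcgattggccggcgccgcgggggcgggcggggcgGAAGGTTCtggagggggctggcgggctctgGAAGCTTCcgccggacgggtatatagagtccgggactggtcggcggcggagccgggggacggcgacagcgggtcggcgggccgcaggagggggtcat
HSP90AA1: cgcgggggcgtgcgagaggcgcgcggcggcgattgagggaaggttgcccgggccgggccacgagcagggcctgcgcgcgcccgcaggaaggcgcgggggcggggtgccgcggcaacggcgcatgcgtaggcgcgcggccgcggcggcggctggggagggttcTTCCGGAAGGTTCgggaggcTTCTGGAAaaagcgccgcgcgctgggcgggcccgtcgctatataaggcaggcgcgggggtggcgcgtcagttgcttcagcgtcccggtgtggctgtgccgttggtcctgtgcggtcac
HSP90AB1: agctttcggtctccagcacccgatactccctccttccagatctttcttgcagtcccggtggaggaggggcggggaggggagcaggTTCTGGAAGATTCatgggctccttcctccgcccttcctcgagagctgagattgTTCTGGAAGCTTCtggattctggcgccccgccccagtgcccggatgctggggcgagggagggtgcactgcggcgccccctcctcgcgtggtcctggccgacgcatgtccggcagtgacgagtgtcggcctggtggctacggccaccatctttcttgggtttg
HSPD1: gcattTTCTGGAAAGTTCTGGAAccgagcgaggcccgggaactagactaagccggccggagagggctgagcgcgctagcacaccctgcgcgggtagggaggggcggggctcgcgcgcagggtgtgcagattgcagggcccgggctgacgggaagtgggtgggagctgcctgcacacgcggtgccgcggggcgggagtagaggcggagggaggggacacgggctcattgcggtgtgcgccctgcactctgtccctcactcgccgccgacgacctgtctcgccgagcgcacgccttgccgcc
HSPE1: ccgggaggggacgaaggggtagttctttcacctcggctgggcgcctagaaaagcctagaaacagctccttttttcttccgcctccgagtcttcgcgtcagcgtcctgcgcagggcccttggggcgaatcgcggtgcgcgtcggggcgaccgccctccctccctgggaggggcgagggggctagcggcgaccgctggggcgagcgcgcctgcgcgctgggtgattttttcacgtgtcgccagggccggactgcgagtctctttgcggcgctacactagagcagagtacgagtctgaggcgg

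These windows differed in their heat shock units. HSPA8 and HSP90AB1 each held 4 marked pairs, HSPD1 and HSP90AA1 each held 3, DNAJB1 held 2, HSPA1A held 1 and HSPE1 held 0, and of the windows not printed that of HSPA9 held 1 and that of HSPH1 held 0, with overlapping pairs counted separately. The other windows of HSP90AB1, HSPD1 and HSP90AA1 held 0, and those of DNAJB1 held 1 and 0. Over the 15 windows of 9 of the genes, 8 windows held at least 1 pair on either strand, against 13.5% of 34943 RefSeq windows of the same length. A run of 3 alternating units occurred in 4 of the 15 windows (HSPA8, HSPD1, HSP90AA1 and HSP90AB1), against 0.489% of all windows. Such a match describes letters in a window and does not show binding.

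HSPA1A has a near-identical copy, HSPA1B, 9795 bases away. The longest open reading frames of the pair were 99.8% identical, and 69.9% of the 100-base stretches of the HSPA1A transcript occurred unchanged in HSPA1B. Counting could therefore split reads of this pair in an uncertain way, so the sum of both genes is given beside the results for HSPA1A. HSPE1 shared 18.6% of its exon bases with the readthrough gene HSPE1-MOB4 on the same strand and 16.4% with HSPD1 on the other strand. On the other strand HSPD1 shared 6.58% of its exon bases with HSPE1, and HSF1 shared 6.22% with DGAT1. The kit kept the strand of the RNA, but the sources used here do not say whether reads were counted by strand. Overlaps on either strand are therefore listed. HSP90AA1 and HSP90AB1 were 64.8% identical in their open reading frames and shared no 100-base stretch.

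The libraries held 9653374 to 20157081 counts. The 10 genes together took 0.363% to 1.015% of them. The labelled stages were checked with markers: the summed level of 10 mature neutrophil markers was 1803 to 13120 TMM-scaled CPM (each library's counts divided by a size that allows for composition) in dHL-60 libraries and 383 to 420 CPM in uHL-60 libraries. In contrast, 7 promyelocyte markers summed to 4877 to 22530 CPM in dHL-60 libraries and 23820 to 26550 CPM in uHL-60 libraries. The single markers were mixed. In edgeR's test of untreated dHL-60 against uHL-60, 2 of the 7 were called higher and 3 lower with both times joined. At 4 h 1 was called higher and 5 lower, and at 24 h 2 were called higher and 2 lower. The 8 monocyte and macrophage markers summed to 140 to 1374 CPM in dHL-60 and 15.4 to 20.1 CPM in uHL-60, and of these MSR1 was at 0 counts in 9 of the 10 groups. Single markers were mixed here too. With both times joined, 2 of the 8 were tested, and 1 was called higher and 1 lower in untreated dHL-60. At each time alone 4 were tested, again with 1 called higher and 1 lower. The 5 eosinophil and basophil markers summed to at most 21.3 CPM in dHL-60 and at least 4153 CPM in uHL-60. Lymphocyte markers stayed at or below 3.86 CPM, and 5 red cell and platelet markers summed to 22.3 to 25.1 CPM with 10 µg/ml LTA and 0.745 to 0.945 CPM with 1 µg/ml LTA in dHL-60 at 4 h, against 33.4 to 36.0 CPM in the untreated cells. The part of these markers in the 4 h results was not tested.

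The first, second and last places of the 10 genes by level were the same in all groups, and the other places changed. Per kilobase of exon, HSPA8 was highest and HSP90AB1 next in all 10 groups, with 435 and 327 CPM per kb in untreated dHL-60 at 4 h. The next places were held by HSP90AA1 and then HSPD1 in every dHL-60 group, and by HSPD1 and then HSP90AA1 in every uHL-60 group. HSPA1A as counted alone was last in all 10 groups, at 1.10 to 3.52 CPM per kb. In untreated dHL-60 at 4 h it was at 2.35 CPM per kb, its copy HSPA1B at 6.96 and HSPH1 at 8.04. The last place of HSPA1A is therefore uncertain, since reads of the pair may be split between the copies. The places after the first 4 were held by HSPA9, HSPE1, DNAJB1 and HSF1 in every dHL-60 group, in changing order. In untreated dHL-60 at 4 h they were 30.9 CPM per kb for HSPA9, 28.6 for DNAJB1, 26.8 for HSF1 and 23.7 for HSPE1, where HSPE1 varied between libraries by more than its distance to HSF1.

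**Figure D1:**
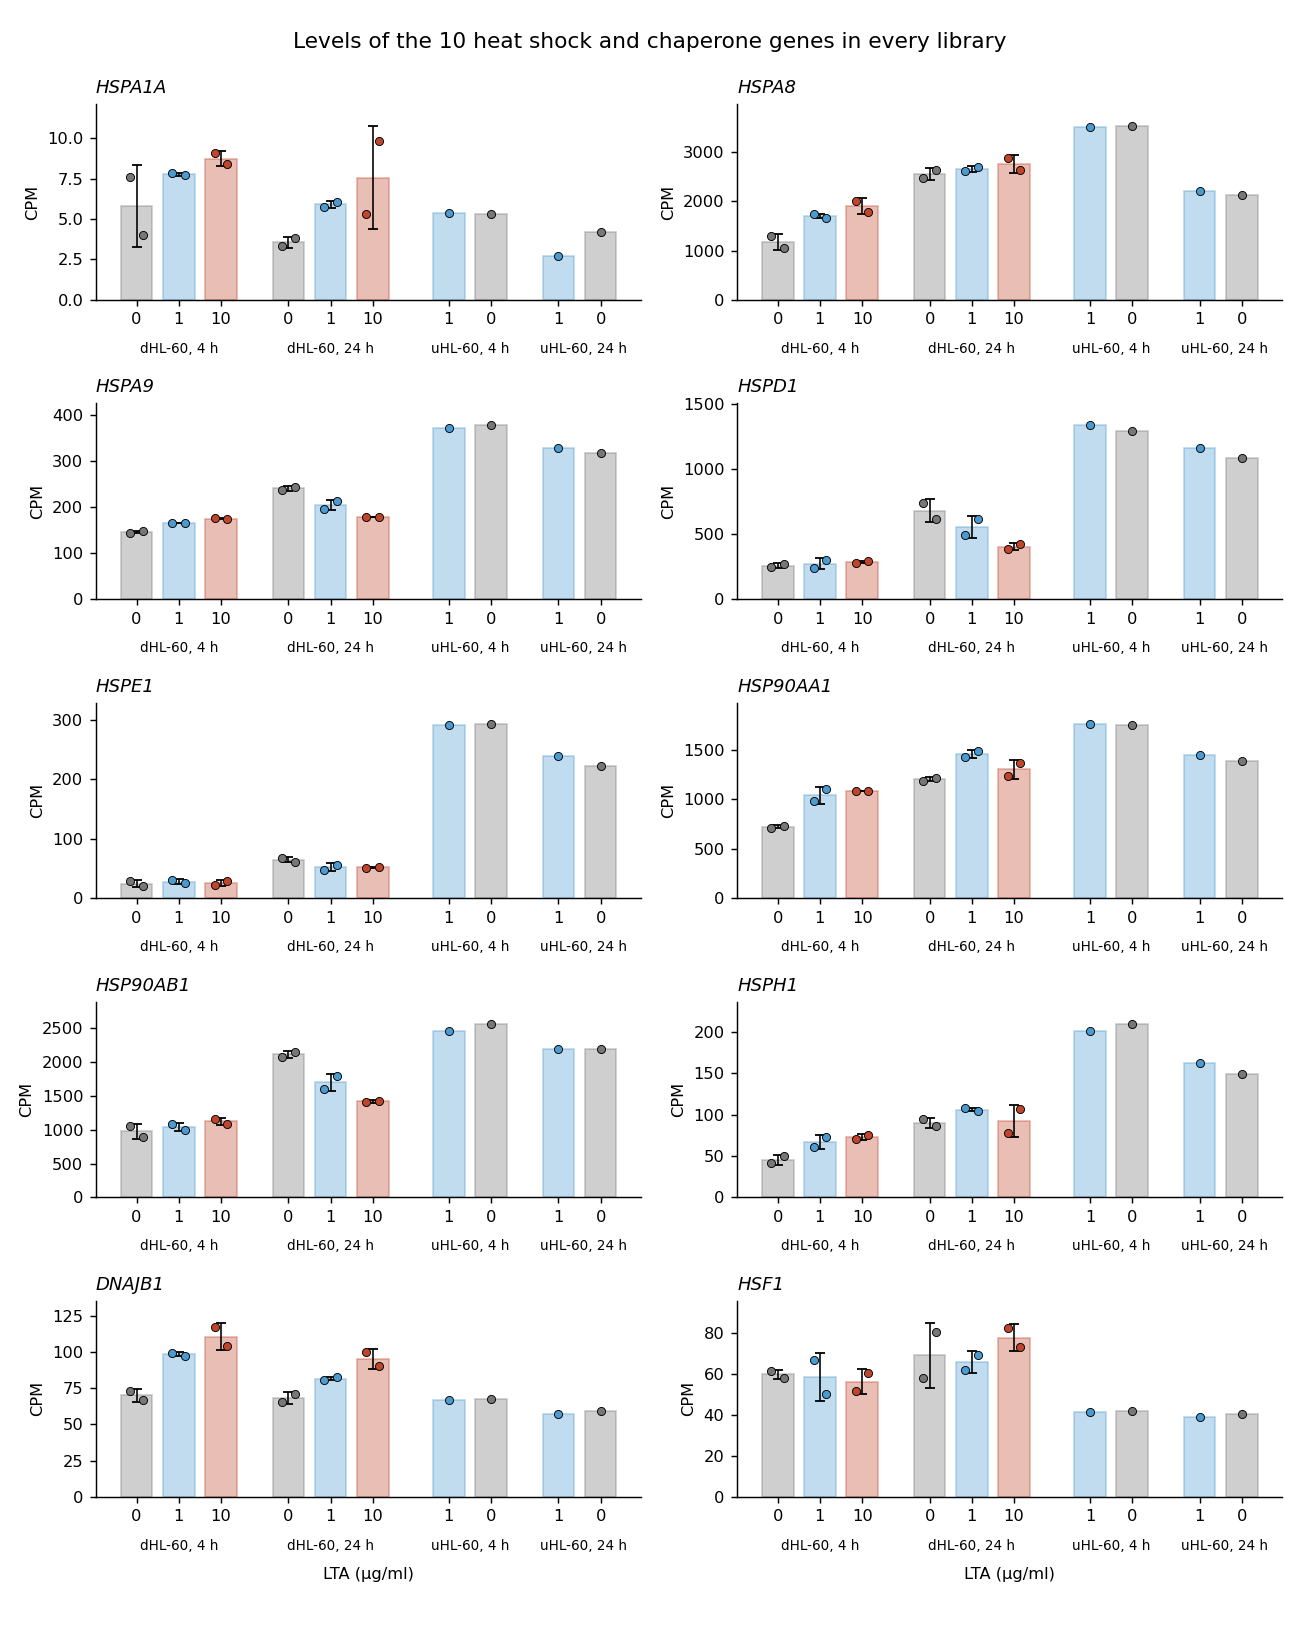
Level of each of the 10 genes in TMM-scaled CPM (vertical axes, linear, starting at 0) in the 10 groups, with a bar at the group mean, a point for each library and, for the groups of 2 libraries, error bars of 1 SD. HSPA8, HSP90AA1, HSPH1 and DNAJB1 were higher with LTA at 4 h, HSPD1 and HSP90AB1 were lower with LTA at 24 h, and HSPE1 was far higher in uHL-60 than in dHL-60.

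The first comparison asked what LTA does to dHL-60 within 4 h. At 4 h HSPA8, HSP90AA1, HSPH1 and DNAJB1 rose with both doses of LTA by about the same factor, 1.41-fold to 1.62-fold, while the mitochondrial genes HSPA9, HSPD1 and HSPE1 and the regulator HSF1 did not pass the test. With 1 µg/ml LTA, 4 of the 10 genes were called higher and 0 lower at an adjusted p under 0.05 (edgeR's quasi-likelihood test, adjusted over all genes), against 18.7% higher and 20.1% lower of the 11866 genes tested. With 10 µg/ml the same 4 genes were called higher and 0 lower, against 20.0% higher and 21.3% lower. Both doses were compared with the same untreated libraries.

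HSPA8, the constitutive HSP70, was at 1290 and 1058 CPM in untreated dHL-60, 1732 and 1667 CPM with 1 µg/ml and 2013 and 1782 CPM with 10 µg/ml at 4 h. Both treated groups lay above both untreated libraries. Such a separation was common at 4 h. Of all 11866 genes tested, 3742 lay wholly above and 4211 wholly below the untreated libraries with 1 µg/ml. With 10 µg/ml these numbers were 3997 and 4380. The log2 fold change was 0.53 ± 0.14 (SE, n = 2 libraries a group) with 1 µg/ml and 0.70 ± 0.15 with 10 µg/ml, with adjusted p of 0.0102 and 0.00174 in edgeR's quasi-likelihood test.

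HSPH1, which reloads HSP70 with ATP, showed the same pattern at a lower level. It was at 41.5 and 49.7 CPM in untreated cells, 60.6 and 72.9 CPM with 1 µg/ml and 70.5 and 75.9 CPM with 10 µg/ml, without overlap between treated and untreated libraries. HSPH1 had a log2 fold change of 0.55 ± 0.16 with 1 µg/ml (adjusted p = 0.0168) and 0.69 ± 0.16 with 10 µg/ml (adjusted p = 0.0044, edgeR).

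DNAJB1, the J-domain partner that hands substrates to HSP70, was at 73.1 and 66.9 CPM in untreated cells, 99.5 and 97.6 CPM with 1 µg/ml and 117 and 104 CPM with 10 µg/ml. All 4 treated libraries lay above both untreated ones. For DNAJB1 the log2 fold change was 0.49 ± 0.13 with 1 µg/ml (adjusted p = 0.00743) and 0.67 ± 0.13 with 10 µg/ml (adjusted p = 0.000905, edgeR).

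HSP90AA1, the inducible HSP90, was at 714 and 735 CPM in untreated cells, 981 and 1104 CPM with 1 µg/ml and 1082 CPM in both libraries with 10 µg/ml. The treated libraries lay above the untreated ones at both doses. HSP90AA1 had a log2 fold change of 0.52 ± 0.13 with 1 µg/ml (adjusted p = 0.00528) and 0.58 ± 0.13 with 10 µg/ml (adjusted p = 0.00244, edgeR). HSP90AB1, the constitutive HSP90, was at 1056 and 894 CPM in untreated cells, 1083 and 996 CPM with 1 µg/ml and 1160 and 1086 CPM with 10 µg/ml. The 1 µg/ml libraries overlapped the untreated ones, and the log2 fold changes of 0.09 ± 0.14 and 0.21 ± 0.14 were not called.

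HSPA1A, the heat-inducible HSP70, was low throughout. It was at 7.62 and 4.03 CPM in untreated cells, 7.83 and 7.72 CPM with 1 µg/ml and 9.08 and 8.41 CPM with 10 µg/ml at 4 h. Its log2 fold changes of 0.43 ± 0.32 and 0.61 ± 0.31 were not called. Summed with HSPA1B it was at 25.3 and 21.4 CPM in untreated cells, 29.7 and 33.8 CPM with 1 µg/ml and 30.8 and 33.3 CPM with 10 µg/ml, and the log2 fold changes of the sum, 0.45 ± 0.19 (adjusted p = 0.08) and 0.46 ± 0.19 (adjusted p = 0.0667, edgeR), were not called either.

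The mitochondrial genes differed less between treated and untreated cells at 4 h. HSPA9, the mitochondrial HSP70, was at 145 and 148 CPM untreated, 166 CPM in both libraries with 1 µg/ml and 175 CPM in both with 10 µg/ml, with log2 fold changes of 0.18 ± 0.11 and 0.27 ± 0.11. HSPD1 ranged over 239 to 299 CPM in these 6 libraries and HSPE1 over 20.2 to 30.4 CPM. Their log2 fold changes were 0.07 ± 0.16 and 0.15 ± 0.16 for HSPD1 and 0.17 ± 0.20 and 0.07 ± 0.20 for HSPE1 at 1 and 10 µg/ml. HSF1 itself was at 61.6 and 58.3 CPM untreated, 67.1 and 50.2 CPM with 1 µg/ml and 52.0 and 60.7 CPM with 10 µg/ml, with log2 fold changes of -0.04 ± 0.18 and -0.08 ± 0.18. None of these 4 genes was called at either dose.

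The size of the 4 h changes rested on the scaling of the libraries. Composition scaling put the median log2 fold change of all genes at -0.04 for both doses, and library totals alone put it at -0.32 with 1 µg/ml and -0.36 with 10 µg/ml. With library totals alone, 0 of the 10 genes were called at 1 µg/ml and 2 (HSPA8 and DNAJB1) at 10 µg/ml. Relative to the median of all genes, the 4 genes stood 0.53 to 0.59 higher on the log2 scale with 1 µg/ml under composition scaling. With library totals alone they also stood 0.53 to 0.59 above the median of that fit. Both ranges match by construction, since a change of scaling shifts all genes by nearly the same amount. They do not show which scaling is right. At 1 µg/ml, leaving out the second LTA library left 2 calls, DNAJB1 and HSPA8, and leaving out the second untreated library left HSP90AA1 and HSPH1. Over all genes, 2214 were called higher and 2380 lower with 1 µg/ml, against 1805 and 3077 with upper-quartile scaling and 1350 and 4194 with library totals alone. With 10 µg/ml the same splits were 2379 and 2524, 1868 and 3263, and 1365 and 4635.

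**Figure D2:**
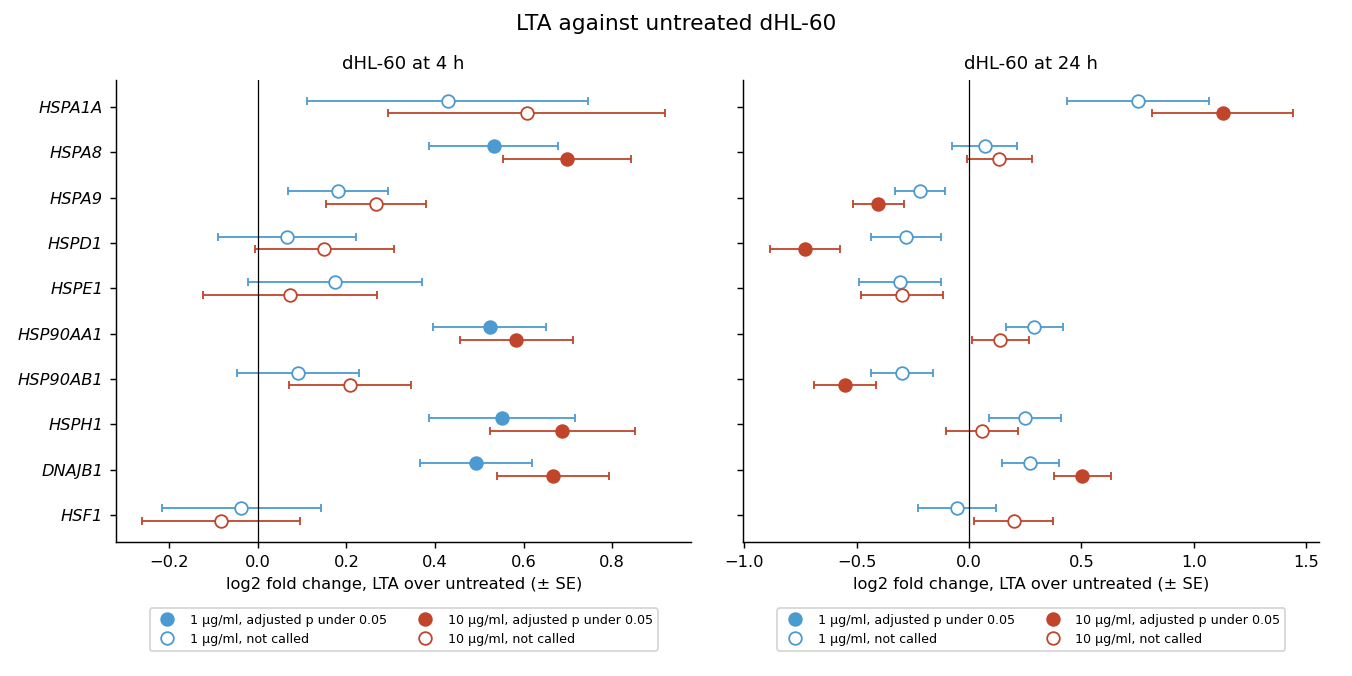
Log2 fold change of each gene in LTA-treated over untreated dHL-60 (horizontal axis) at 4 h and at 24 h, with a point for each dose and error bars of 1 SE. At 4 h the points of HSPA8, HSP90AA1, HSPH1 and DNAJB1 lie between 0.49 and 0.70, and at 24 h the points of HSPD1, HSP90AB1, HSPA9 and HSPE1 lie below 0.

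After 24 h the direction was mixed. With 10 µg/ml LTA, HSPA1A and DNAJB1 rose, while HSPD1, HSP90AB1 and HSPA9 fell. This gave 2 of the 10 genes called higher and 3 called lower, against 23.6% higher and 19.0% lower of all genes tested. With 1 µg/ml LTA edgeR called 0 of the 10, against 21.2% of all genes called in either direction. At an unadjusted p under 0.05 there were 4 genes, HSPA1A and HSP90AA1 and DNAJB1 with positive and HSP90AB1 with a negative log2 fold change, and DESeq2 called 0. The sum of HSPA1A and HSPA1B had a log2 fold change of 0.11 ± 0.19 at that dose, against 0.75 ± 0.32 for HSPA1A alone.

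HSPD1, the chaperonin, was at 741 and 617 CPM in untreated cells, 495 and 612 CPM with 1 µg/ml and 381 and 423 CPM with 10 µg/ml at 24 h. Every treated library lay below both untreated ones, narrowly at 1 µg/ml. Such a separation was common at 24 h as well. Of all 11866 genes tested, 4229 lay wholly above and 4320 wholly below the untreated libraries with 10 µg/ml. With 1 µg/ml these numbers were 3777 and 3717. With 10 µg/ml the log2 fold change was -0.73 ± 0.16 (adjusted p = 0.00205, edgeR), and with 1 µg/ml it was -0.28 ± 0.16 (adjusted p = 0.226). HSPE1, its lid, was at 68.0 and 61.5 CPM untreated, 47.1 and 56.6 CPM with 1 µg/ml and 51.3 and 52.2 CPM with 10 µg/ml. All 4 treated libraries were below the untreated ones, yet its log2 fold changes of -0.31 ± 0.18 and -0.30 ± 0.18 were not called.

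HSPA9 was at 237 and 244 CPM in untreated cells, 197 and 213 CPM with 1 µg/ml and 179 CPM in both libraries with 10 µg/ml. The 3 doses did not overlap. Between 10 and 1 µg/ml at 24 h, 3387 of all 11866 genes lay wholly higher and 3470 wholly lower with 10 µg/ml. Its log2 fold change was -0.40 ± 0.11 with 10 µg/ml (adjusted p = 0.0106, edgeR) and -0.22 ± 0.11 with 1 µg/ml (adjusted p = 0.191). HSP90AB1 was at 2073 and 2144 CPM untreated, 1604 and 1788 CPM with 1 µg/ml and 1401 and 1429 CPM with 10 µg/ml, again without overlap. HSP90AB1 had a log2 fold change of -0.55 ± 0.14 with 10 µg/ml (adjusted p = 0.00568) and -0.30 ± 0.14 with 1 µg/ml (adjusted p = 0.144, edgeR).

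DNAJB1 was at 65.5 and 71.2 CPM in untreated cells, 80.8 and 82.4 CPM with 1 µg/ml and 100 and 90.3 CPM with 10 µg/ml, with no overlap between the 3 doses. Its log2 fold change was 0.50 ± 0.13 with 10 µg/ml (adjusted p = 0.00566, edgeR) and 0.27 ± 0.13 with 1 µg/ml (adjusted p = 0.145). DNAJB1 was the only gene of the 10 called with 10 µg/ml LTA at both times in the same direction, and its 24 h call was lost without the first LTA library and without the first untreated library.

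HSPA1A was at 3.32 and 3.81 CPM in untreated cells, 5.78 and 6.05 CPM with 1 µg/ml and 5.30 and 9.84 CPM with 10 µg/ml. Its log2 fold change was 1.13 ± 0.31 with 10 µg/ml (adjusted p = 0.0106, edgeR). The sum of HSPA1A and HSPA1B was at 20.4 and 19.2 CPM untreated, 20.0 and 22.3 CPM with 1 µg/ml and 19.5 and 30.1 CPM with 10 µg/ml. That sum overlapped between treated and untreated cells and was not called at 10 µg/ml (log2 fold change 0.35 ± 0.19, adjusted p = 0.148, edgeR). The call of HSPA1A was also lost without the second library of 10 µg/ml LTA, which left DNAJB1, HSP90AB1 and HSPD1 called, and without the first untreated library, which left HSPA9, HSP90AB1 and HSPD1.

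Of the 4 genes called at 4 h, HSPA8, HSP90AA1 and HSPH1 were not called at 24 h. HSPA8 was at 2465 and 2639 CPM untreated, 2605 and 2695 CPM with 1 µg/ml and 2880 and 2630 CPM with 10 µg/ml, with overlapping libraries and log2 fold changes of 0.07 ± 0.14 and 0.14 ± 0.14. HSP90AA1 was at 1189 and 1219 CPM untreated, 1427 and 1488 CPM with 1 µg/ml and 1238 and 1369 CPM with 10 µg/ml. HSPH1 was at 94.5 and 86.0 CPM untreated, 108 and 105 CPM with 1 µg/ml and 78.3 and 106 CPM with 10 µg/ml. HSF1 was not called either, and was at 57.9 and 80.5 CPM untreated, 62.1 and 69.6 CPM with 1 µg/ml and 82.6 and 73.2 CPM with 10 µg/ml.

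Markers of maturation and of monocytes and macrophages moved over the same libraries at 24 h. All 7 promyelocyte markers were called lower with each dose, and their summed level was 4877 to 6034 CPM with 10 µg/ml and 6352 to 9433 CPM with 1 µg/ml, against 17170 to 22530 CPM untreated. Of the 10 mature neutrophil markers, 8 were called higher with each dose, while 0 were called lower with 10 µg/ml and 1 with 1 µg/ml. The sum of the 10 was 11560 to 13120 CPM with 10 µg/ml and 6650 to 6762 CPM with 1 µg/ml, against 1803 to 1863 CPM untreated. The monocyte and macrophage markers summed to 1230 to 1374 CPM with 10 µg/ml and 565 to 622 CPM with 1 µg/ml, against 140 to 146 CPM untreated. Of these 8, the 2 that were tested, CD14 and C1QA, were called higher with each dose, with log2 fold changes of 3.21 and 4.69 with 10 µg/ml and 2.07 and 3.37 with 1 µg/ml. In bulk RNA, fewer cells of a type and less RNA per cell cannot be told apart. The part of these shifts in the chaperone results was not tested. At 4 h, 4 promyelocyte markers were called lower with 10 µg/ml and 3 with 1 µg/ml, and their sum was 7561 to 8642 CPM with 10 µg/ml and 8459 to 9275 CPM with 1 µg/ml, against 9111 to 12020 CPM untreated. Of the neutrophil markers, 3 were called higher and 3 lower with each dose at 4 h, and their sum was 8452 to 9261 CPM with 10 µg/ml and 8541 to 9569 CPM with 1 µg/ml, against 5845 to 7802 CPM untreated. The monocyte and macrophage markers summed to 648 to 743 CPM with 10 µg/ml and 735 to 762 CPM with 1 µg/ml, against 443 to 581 CPM untreated, with CD14 and C1QA called higher with 10 µg/ml and CD14 with 1 µg/ml.

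The doses were compared directly. At 4 h edgeR called 0 of the 10 genes between 10 and 1 µg/ml, with 0 at an unadjusted p under 0.05 and 0 in DESeq2, against 0.00843% of all genes called. At 24 h it called 0 as well, with 1 gene, HSPD1, at an unadjusted p under 0.05 and 0 in DESeq2, against 3.82% of all genes. HSPD1 was at 381 and 423 CPM with 10 µg/ml and 495 and 612 CPM with 1 µg/ml, a log2 difference of -0.45 ± 0.16 (adjusted p = 0.119, edgeR). These misses do not show that the doses act alike.

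The difference between the 24 h and the 4 h response to 10 µg/ml LTA was tested as an interaction. It was negative for HSPD1 (-0.88 ± 0.22, adjusted p = 0.00796), HSP90AB1 (-0.76 ± 0.19, adjusted p = 0.00908), HSPA9 (-0.67 ± 0.16, adjusted p = 0.00597), HSPH1 (-0.63 ± 0.23, adjusted p = 0.0478) and HSPA8 (-0.56 ± 0.20, adjusted p = 0.0478, all edgeR, log2 scale). Thus 0 of the 10 genes were called higher and 5 lower, against 19.7% higher and 14.0% lower of all genes. HSPD1, HSP90AB1 and HSPA9 remained called in every fit that left out 1 library, while HSPH1 and HSPA8 were both lost without either untreated 24 h library or without the first 4 h library of 10 µg/ml LTA, and 1 of them was lost in each other such fit. For 1 µg/ml edgeR called 0, against 20.7% of all genes in either direction. In that comparison 2 genes, HSPA9 and HSPA8, had an unadjusted p under 0.05, and DESeq2 called these 2 lower.

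Untreated dHL-60 changed between the times on their own, which is the base of both responses. From 4 to 24 h in culture without LTA, 7 of the 10 genes rose, by 1.65-fold to 2.67-fold: HSPE1, HSPD1, HSPA8, HSP90AB1, HSPH1, HSP90AA1 and HSPA9. Thus 7 were called higher and 0 lower, against 17.8% higher and 23.1% lower of all genes. HSF1 and DNAJB1 did not pass the test, and HSPA1A had a negative log2 difference that was not called.

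The chaperonin pair had the largest log2 fold changes of the 10 genes. HSPD1 was at 741 and 617 CPM at 24 h and 245 and 269 CPM at 4 h, a log2 fold change of 1.41 ± 0.16 (adjusted p = 1.83e-05, edgeR). HSPE1 was at 68.0 and 61.5 CPM at 24 h and 28.6 and 20.2 CPM at 4 h, a log2 fold change of 1.42 ± 0.19 (adjusted p = 7.56e-05, edgeR). Neither gene's libraries overlapped between the times. HSPA9, the other mitochondrial gene, was at 237 and 244 CPM at 24 h and 145 and 148 CPM at 4 h, a log2 fold change of 0.72 ± 0.11 (adjusted p = 0.000231, edgeR).

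Among the cytosolic genes, HSPA8 was at 2465 and 2639 CPM at 24 h and 1290 and 1058 CPM at 4 h, a log2 fold change of 1.12 ± 0.15 (adjusted p = 5.63e-05, edgeR). HSP90AB1 was at 2073 and 2144 CPM at 24 h and 1056 and 894 CPM at 4 h, also a log2 fold change of 1.12 ± 0.14 (adjusted p = 3.94e-05, edgeR). HSPH1 and HSP90AA1 rose by 0.99 ± 0.16 and 0.74 ± 0.13 on the log2 scale (adjusted p = 0.000361 and 0.000522, edgeR). All 4 were higher in both 24 h libraries than in either 4 h library. Such a separation was common: of all 11866 genes tested, 3775 lay wholly above and 4436 wholly below their 4 h libraries. DNAJB1 was at 65.5 and 71.2 CPM at 24 h and 73.1 and 66.9 CPM at 4 h, with overlapping libraries and a log2 difference of -0.03 ± 0.13. HSPA1A was at 3.32 and 3.81 CPM at 24 h and 7.62 and 4.03 CPM at 4 h, without overlap, and its log2 difference of -0.69 ± 0.33 was not called (adjusted p = 0.106, edgeR). The sum with HSPA1B was at 20.4 and 19.2 CPM at 24 h and 25.3 and 21.4 CPM at 4 h, a log2 difference of -0.23 ± 0.19 that was not called.

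Summed over the 10 genes, untreated dHL-60 had 6993 and 7167 CPM at 24 h and 3663 and 3303 CPM at 4 h. Over the same libraries all 10 mature neutrophil markers were called lower at 24 h, with sums of 1803 to 1863 CPM at 24 h and 5845 to 7802 CPM at 4 h. The promyelocyte markers had 3 called higher and 0 lower, with sums of 17170 to 22530 CPM at 24 h and 9111 to 12020 CPM at 4 h. The monocyte and macrophage markers summed to 140 to 146 CPM at 24 h and 443 to 581 CPM at 4 h, with CD14 called lower. The part of these shifts in the rise of the chaperone genes was not tested.

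**Figure D3:**
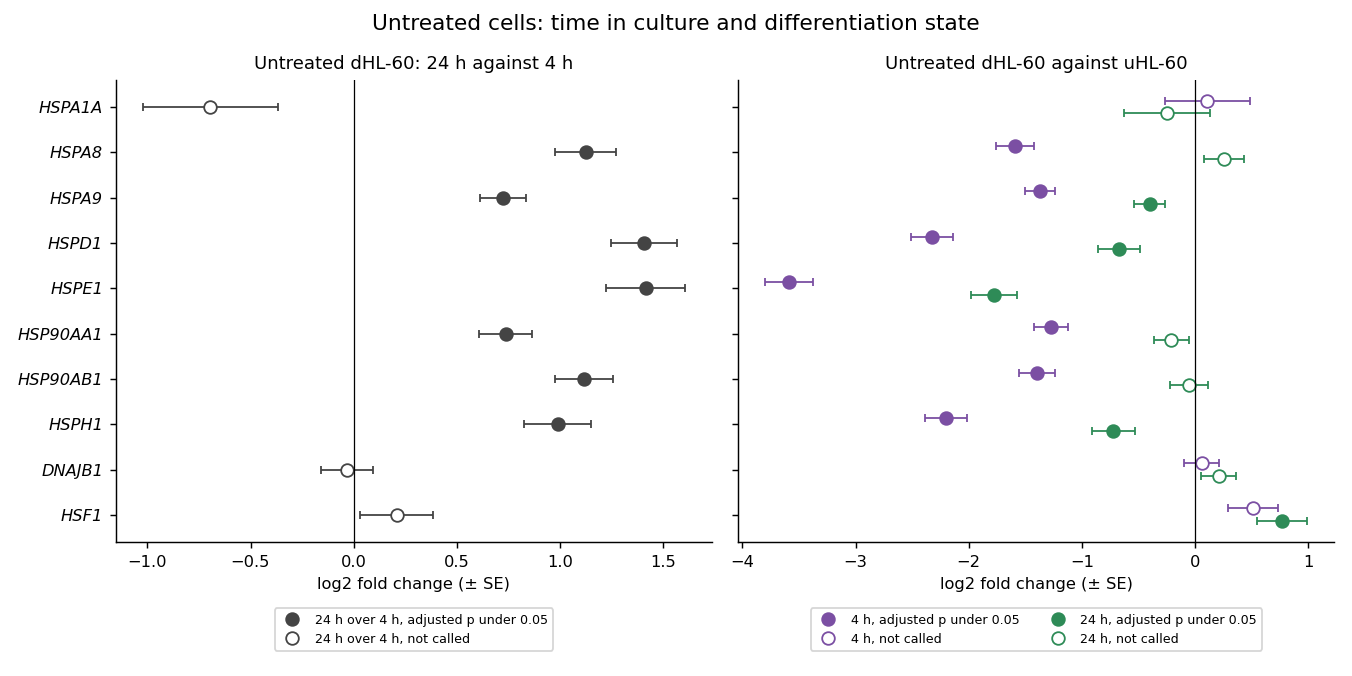
Log2 fold change of each gene in untreated cells (horizontal axis) at 24 h over 4 h in dHL-60, and in dHL-60 over uHL-60 at 4 h and at 24 h, with error bars of 1 SE. HSPE1, HSPD1 and HSPH1 lie far below 0 against uHL-60 at 4 h and nearer to 0 at 24 h.

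Differentiated and undifferentiated cells were compared without LTA. With both times joined, dHL-60 had higher HSF1 and lower HSPE1, HSPD1, HSPH1, HSPA9, HSP90AB1 and HSP90AA1. This gave 1 of the 10 genes called higher and 6 lower, against 29.7% higher and 28.3% lower of the 11884 genes tested. HSPE1 differed most, by -2.80 ± 0.36 on the log2 scale (adjusted p = 0.000302, edgeR), followed by HSPD1 at -1.61 ± 0.34 (adjusted p = 0.00335) and HSPH1 at -1.56 ± 0.30 (adjusted p = 0.00242). HSF1 was higher by 0.60 ± 0.20 (adjusted p = 0.0273, edgeR). The call of HSF1 was lost without the first 4 h library of dHL-60, the second 24 h library of dHL-60 or the 24 h library of uHL-60, and with the replicate number as a block, where HSP90AA1 and HSP90AB1 were lost too. There were 4 calls without the first 4 h library of dHL-60 (HSPA9, HSPD1, HSPE1 and HSPH1) and without the 4 h library of uHL-60 (HSF1, HSPD1, HSPE1 and HSPH1). The 4 uHL-60 libraries share any batch of their own with their stage, so batch and stage cannot be told apart.

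The times differed, so each was also compared alone, a choice made after seeing the data, in a fit over all 16 libraries in which a lone uHL-60 library is assumed to vary like the dHL-60 pairs. At 4 h 0 genes were called higher in dHL-60 and 7 lower, against 35.1% higher and 31.2% lower of 12603 genes tested. At 24 h 1 gene was called higher and 4 lower, against 24.5% higher and 23.0% lower. Without the second untreated dHL-60 library at 24 h, HSPE1 and HSPH1 were the 2 calls left.

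HSPE1 was at 28.6 and 20.2 CPM in dHL-60 and 292 CPM in uHL-60 at 4 h, a log2 difference of -3.58 ± 0.21 (adjusted p = 5.36e-09, edgeR). At 24 h it was at 68.0 and 61.5 CPM in dHL-60 and 222 CPM in uHL-60, a log2 difference of -1.77 ± 0.20 (adjusted p = 6.89e-06). HSPD1 was at 245 and 269 CPM in dHL-60 and 1288 CPM in uHL-60 at 4 h, and at 741 and 617 CPM in dHL-60 and 1080 CPM in uHL-60 at 24 h. Its log2 differences were -2.32 ± 0.18 at 4 h (adjusted p = 8.08e-08) and -0.67 ± 0.19 at 24 h (adjusted p = 0.00879, edgeR). At each time the log2 difference was larger for the lid than for the chamber protein, and this gap was not tested.

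HSPH1 was at 41.5 and 49.7 CPM in dHL-60 and 210 CPM in uHL-60 at 4 h, and at 94.5 and 86.0 CPM in dHL-60 and 149 CPM in uHL-60 at 24 h. The log2 differences were -2.20 ± 0.19 and -0.72 ± 0.19 (adjusted p = 1.61e-07 and 0.0057, edgeR). HSPA8 was at 1290 and 1058 CPM in dHL-60 and 3529 CPM in uHL-60 at 4 h, a log2 difference of -1.59 ± 0.17 (adjusted p = 1.47e-06). At 24 h HSPA8 was at 2465 and 2639 CPM in dHL-60 and 2136 CPM in uHL-60, and its log2 difference of 0.26 ± 0.18 was not called. HSP90AA1 and HSP90AB1 were lower in dHL-60 at 4 h, with log2 differences of -1.27 ± 0.15 and -1.40 ± 0.16, and were not called at 24 h. HSF1 was at 57.9 and 80.5 CPM in dHL-60 and 40.6 CPM in uHL-60 at 24 h, a log2 difference of 0.77 ± 0.22 (adjusted p = 0.0112, edgeR), and at 61.6 and 58.3 CPM in dHL-60 and 42.0 CPM in uHL-60 at 4 h, where 0.51 ± 0.22 missed the threshold (adjusted p = 0.0549).

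HSPA1A alone and summed with its copy gave different values in this comparison. At 4 h HSPA1A was at 7.62 and 4.03 CPM in dHL-60 and 5.35 CPM in uHL-60, a log2 difference of 0.11 ± 0.37 that was not called. Summed with HSPA1B it was at 25.3 and 21.4 CPM in dHL-60 and 42.5 CPM in uHL-60, a log2 difference of -0.86 ± 0.22 (adjusted p = 0.00313, edgeR). At 24 h the log2 difference was -0.25 ± 0.38 for HSPA1A alone, which was not called, and -0.69 ± 0.22 for the sum (adjusted p = 0.0189, edgeR). With both times joined it was -0.10 ± 0.33 for HSPA1A alone, not called, and -0.81 ± 0.18 for the sum (adjusted p = 0.00408, edgeR). How the reads of this pair were divided between the copies was not tested.

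The stages also differed in how untreated cells changed from 4 to 24 h, again a comparison added after seeing the data. The log2 change in dHL-60 minus that in uHL-60 was called higher for 7 of the 10 genes and lower for 0, against 5.77% higher and 8.15% lower of all genes. It was 1.84 ± 0.25 for HSPA8, 1.81 ± 0.31 for HSPE1, 1.66 ± 0.27 for HSPD1, 1.48 ± 0.28 for HSPH1, 1.34 ± 0.24 for HSP90AB1, 1.06 ± 0.22 for HSP90AA1 and 0.97 ± 0.20 for HSPA9, with adjusted p of 0.000697 to 0.00735 (edgeR). These 7 were lower at 24 h than at 4 h in the untreated uHL-60 libraries, for example HSPA8 with 2136 CPM at 24 h and 3529 CPM at 4 h and HSPH1 with 149 CPM at 24 h and 210 CPM at 4 h. In untreated dHL-60 the same 7 were higher at 24 h. Each uHL-60 time is a single library.

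In uHL-60 the summed counts of these genes with and without 1 µg/ml LTA were nearly equal. Summed over the 10 genes there were 174515 counts with LTA and 204687 without at 4 h, a scaled ratio of 0.991 (95% exact binomial interval 0.984 to 0.997), and 125813 with LTA and 147529 without at 24 h, a ratio of 1.03 (1.02 to 1.04). Intervals of this kind cover counting error only. Of single genes at 24 h, HSPA1A had a ratio of 0.650 (0.440 to 0.948) from 44 counts with LTA and 82 without, and the other 9 lay between 0.959 and 1.09. Its copy HSPA1B had a ratio of 0.948 (0.832 to 1.08) from 422 counts with LTA and 539 without, and the sum of both was at 29 CPM with LTA and 31.9 CPM without. With both times joined, edgeR called 0 of the 10 genes, with 0 at an unadjusted p under 0.05 and 0 in DESeq2, against 0.209% of all genes called.

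Whether dHL-60 and uHL-60 differed in their response to 1 µg/ml LTA was tested directly. At 4 h edgeR called 0 of the 10 genes, against 10.3% of all genes. HSPH1, HSPA8, HSP90AA1 and DNAJB1, which rose in dHL-60, had differences of 0.62 ± 0.27, 0.54 ± 0.25, 0.52 ± 0.22 and 0.51 ± 0.22 on the log2 scale. These 4 were the genes at an unadjusted p under 0.05, their adjusted p was 0.169 to 0.201, and DESeq2 called 1 of them, HSP90AA1. At 24 h edgeR called 0, against 1.63% of all genes, with 1 gene, HSPA1A, at an unadjusted p under 0.05 and 0 in DESeq2. That difference was 1.36 ± 0.56 for HSPA1A alone and 0.23 ± 0.32 for its sum with HSPA1B on the log2 scale.

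Other genes of protein folding were read from 6 lists of 91 genes, of which 88 were tested in dHL-60. At 4 h, 25 were called higher and 7 lower with 10 µg/ml, and 24 higher and 9 lower with 1 µg/ml. Of all genes 20.0% were called higher and 21.3% lower with 10 µg/ml, and 18.7% higher and 20.1% lower with 1 µg/ml. The lists had medians of 0.17 and 0.14 against -0.04 for all genes at both doses. With library totals alone these counts turned to 14 higher and 26 lower and 11 higher and 22 lower, with medians of -0.15 and -0.14 against -0.36 and -0.32 for all genes. Chaperones of the endoplasmic reticulum made up much of the group: 9 of 15 were called higher with 10 µg/ml and 11 with 1 µg/ml, and none lower, with medians of 0.55 and 0.56. With library totals alone that list had 6 genes higher with 10 µg/ml and 5 with 1 µg/ml, and 0 lower at either dose. Without the second library of 1 µg/ml LTA, 4 of the 88 genes were called lower at that dose, and 5 without the first library of either of those groups (1 µg/ml or untreated). Without the first library of 10 µg/ml, 4 were called lower at 10 µg/ml. At 24 h, 18 of the 88 genes were called higher and 17 lower with 10 µg/ml, shares near the 23.6% higher and 19.0% lower of all genes. These counts were 9 and 10 without the first LTA library, the lower count was 8 without the first untreated library, and the higher count was 10 without the second. The endoplasmic reticulum list had 1 gene higher and 6 lower at that dose and time, with 3 lower without the first LTA library. Its responses at 24 h minus those at 4 h had 11 of 15 genes lower and 0 higher at each dose. Of all 11866 genes tested, 1662 were called lower in that difference with 10 µg/ml and 879 with 1 µg/ml. The medians of the list were -0.96 and -0.92 for 10 and 1 µg/ml, against 0.04 for all genes at each dose.

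Of heat shock factors and further inducible targets of the heat shock response, 5 of 18 were called higher with each dose at 4 h and 0 lower, against 20.0% and 18.7% of all genes called higher with 10 and 1 µg/ml. With 1 µg/ml, 3 were called without the first LTA library and 2 without the second. BAG3, which links HSP70 to selective autophagy, averaged 7.85 ± 1.61 CPM with 10 µg/ml and 9.13 ± 1.67 CPM with 1 µg/ml at 4 h, against 2.52 ± 0.66 CPM untreated (SD, n = 2 each). Its log2 fold change was 1.65 ± 0.30 with 10 µg/ml and 1.85 ± 0.30 with 1 µg/ml at 4 h (adjusted p = 0.000708 and 3e-04, edgeR). At 24 h it averaged 3.54 ± 0.96 CPM with 10 µg/ml and 2.80 ± 0.13 CPM with 1 µg/ml, against 0.614 ± 0.188 CPM untreated, with log2 fold changes of 2.58 ± 0.37 and 2.23 ± 0.38. HSPA6, a strictly inducible HSP70, had log2 fold changes of 2.05 ± 0.31 with 10 µg/ml and 1.67 ± 0.31 with 1 µg/ml at 24 h, at levels of 6.21 ± 2.48 CPM and 4.84 ± 0.23 CPM against 1.54 ± 0.14 CPM untreated. It has a near copy in HSPA7 (18.6 ± 10.5 CPM with 1 µg/ml and 5.32 ± 1.18 CPM untreated at 24 h), so the values of both are uncertain. With 10 µg/ml at 24 h, HSF4 fell by 1.25 ± 0.31 and HSPA4L fell by 1.11 ± 0.29 on the log2 scale. The call of HSF4 was lost without the second LTA library, and that of HSPA4L without the first library of either group.

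Among 18 HSP70 co-chaperones tested, 7 were called higher and 2 lower with 10 µg/ml at 4 h, and 5 higher and 3 lower with 1 µg/ml. Each higher count was 3 without the second untreated library or without the first library of that dose. DNAJB6, a J-domain protein that holds back aggregation, averaged 204 ± 26.4 CPM with 10 µg/ml and 172 ± 8.65 CPM with 1 µg/ml at 4 h, against 55.0 ± 2.24 CPM untreated, with log2 fold changes of 1.89 ± 0.14 and 1.65 ± 0.14. DNAJA1 averaged 265 ± 16.4 CPM and 250 ± 10.9 CPM against 90.6 ± 4.99 CPM untreated. HSPA13 had log2 fold changes of 1.69 ± 0.34 and 1.58 ± 0.34. DNAJB2, another J-domain protein, rose with 10 µg/ml at 24 h by 1.81 ± 0.17. In the test of stage against stage at 4 h, the response to 1 µg/ml was larger in dHL-60 than in uHL-60 for DNAJB6 (1.60 ± 0.23), DNAJA1 (adjusted p = 0.000573) and DNAJB11, a J-domain protein of the endoplasmic reticulum (1.18 ± 0.25, adjusted p = 0.0092, edgeR), on the log2 scale. With 10 µg/ml at 4 h, 3 of 12 HSP90 co-chaperones were called higher and 2 lower, 1 of 14 TRiC and prefoldin genes higher and 0 lower, and 0 of 11 mitochondrial chaperones and proteases higher and 3 lower, against 20.0% higher and 21.3% lower of all genes. Of the HSP90 co-chaperones, 1 was called higher without the second untreated library.

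Untreated dHL-60 also differed between the times in these lists. Of the 88 genes, 43 were called higher and 10 lower at 24 h than at 4 h, against 17.8% higher and 23.1% lower of all genes, with a median of 0.44 against -0.04 for all genes. The cytosolic chaperonin TRiC and prefoldin, which fold actin and tubulin, had 10 of 14 genes higher and 1 lower, the mitochondrial list had 9 of 11 higher and 0 lower, and the endoplasmic reticulum list had 9 of 15 higher and 1 lower. The other lists had fewer calls, with 5 of 18 HSP70 co-chaperones higher and 2 lower, 4 of 12 HSP90 co-chaperones higher and 1 lower, and 6 of 18 heat shock factors and inducible targets higher and 5 lower. Without the first 24 h library these HSP70 co-chaperones had 2 higher and the inducible targets 3, and without the second 4 h library the HSP70 co-chaperones had 3. TRAP1, the mitochondrial HSP90, averaged 120 ± 8.39 CPM at 24 h and 35.1 ± 2.23 CPM at 4 h, a log2 fold change of 1.78 ± 0.13, and 28.0% of its exon bases lie opposite DNASE1. CALR, a lectin chaperone of the endoplasmic reticulum, averaged 3520 ± 602 CPM at 24 h and 1024 ± 54.5 CPM at 4 h, also a log2 fold change of 1.78 ± 0.18. BAG3 and DNAJB2 fell by 2.04 ± 0.40 and 1.60 ± 0.17 in the same comparison.

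Against uHL-60 at 4 h, 59 of the 88 genes were called lower and 14 higher in untreated dHL-60, against 31.2% lower and 35.1% higher of all genes, with a median of -0.995 against 0.10 for all genes. TRiC and prefoldin had 11 of 14 lower and 1 higher. TRAP1 averaged 35.1 ± 2.23 CPM in dHL-60 against 340 CPM in uHL-60, a log2 difference of -3.28 ± 0.15. HSPA14, a ribosome-bound HSP70, averaged 8.14 ± 0.60 CPM in dHL-60 against 57.4 CPM in uHL-60, a log2 difference of -2.81 ± 0.19. TTC4, an HSP90 co-chaperone, was at 0.977 ± 0.799 CPM in dHL-60 and 45.9 CPM in uHL-60, and 73.9% of its exon bases are shared with the readthrough gene MROH7-TTC4 on the same strand, so its value is uncertain. HSF4 was higher in dHL-60, with 4.61 ± 0.47 CPM in dHL-60 and 0.099 CPM in uHL-60, where it had fewer than 3 counts. By 24 h, 32 of the 88 genes were called lower and 12 higher, against 23.0% lower and 24.5% higher of all genes. The median of the 88 was then -0.33 against 0.05 for all genes, and that of TRiC and prefoldin was -0.51. Each uHL-60 group in these comparisons is 1 library.

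**Figure D4:**
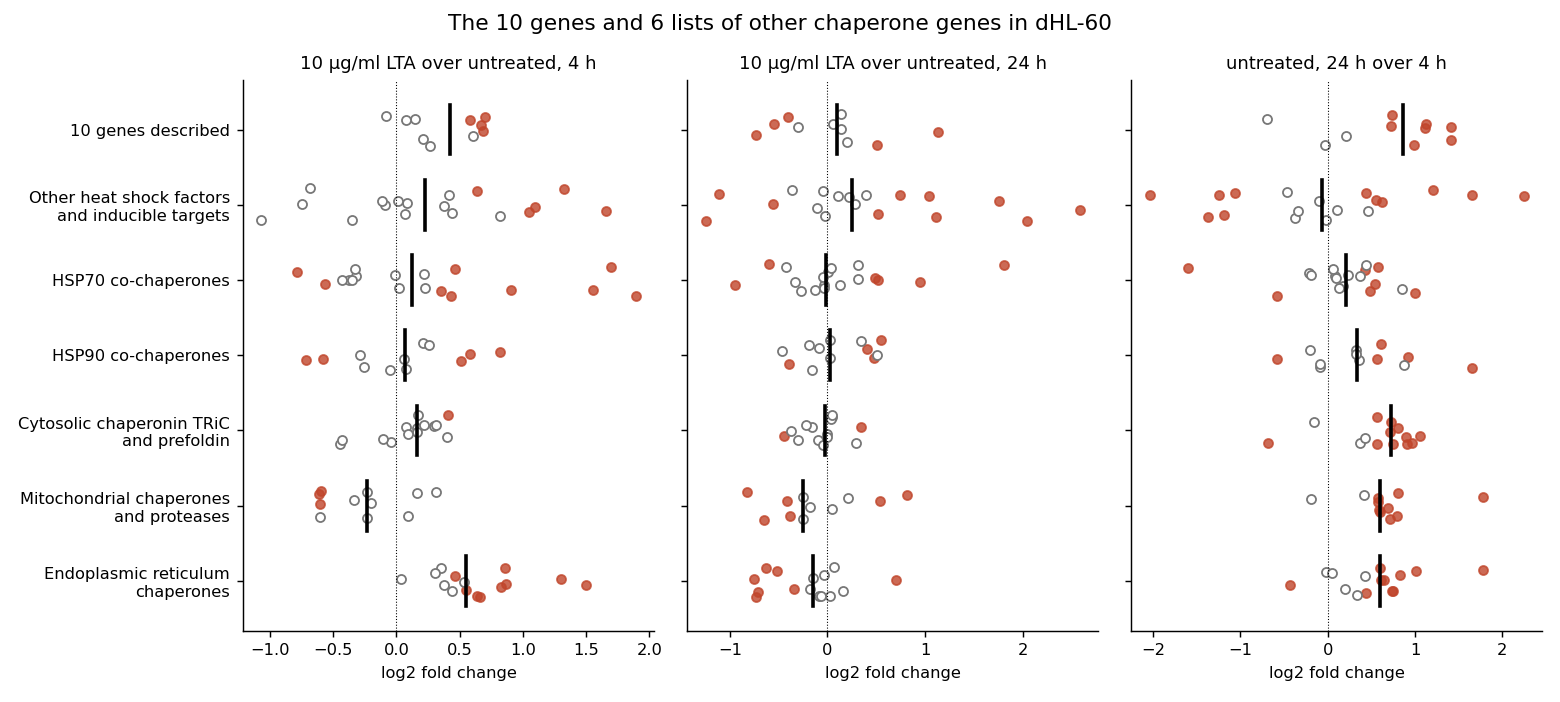
Log2 fold change (horizontal axis) of the 10 genes and of the genes of 6 further chaperone lists in dHL-60, for 10 µg/ml LTA at 4 h, 10 µg/ml LTA at 24 h and untreated cells at 24 h over 4 h. Each point is a gene, filled where its adjusted p was under 0.05, and a black bar marks the median. The median of the endoplasmic reticulum chaperones was 0.55 at 4 h. In the comparison of times the medians of the TRiC, mitochondrial and endoplasmic reticulum lists were 0.72, 0.60 and 0.60, with single genes on the other side of 0.

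The genes whose levels ran most like those of DNAJB1 were sought over all dHL-60 libraries. By root mean square distance between log2(CPM + 1) values centred on their mean over the 12 dHL-60 libraries, the 5 nearest of 9406 genes with a mean of at least 5 CPM were GNB1 (0.0746), SLC39A7 (0.0766), PSMD11 (0.0777), VCP (0.0861) and GTF2B (0.0936). The nearest of the other 9 genes described here was HSPA1A, at place 1564 with a distance of 0.283, and HSPD1 and HSPE1 were at places 7919 and 7957. These libraries share their groups and their scaling, so the distances are a description.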

How the data were processed

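RNA of HL-60 cells was sequenced with the TruSeq Stranded mRNA kit, per the labels' protocols, and the authors deposited raw counts per gene symbol. Tools listed in the submitters' processing notes, with no role given, are HISAT2 2.1.0, fastp 0.20.0, edgeR 3.36.0, featureCounts 2.0.1 and DESeq2 1.28.0, with GRCh38 as the genome. In the deposited table the 4 uHL-60 columns follow another sort order of the symbols, so 1343 of the 23575 symbols, none of the 10 genes among them, stood beside another symbol's values. After realignment the correlation of these symbols with the mean of dHL-60 was 0.896 to 0.901, against 0.248 to 0.253 as deposited.

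Counts were tested in R 4.3.3 with edgeR 4.0.16 (TMM scaling, filterByExpr, group means, quasi-likelihood test) over all genes that passed the filter on low counts, with Benjamini-Hochberg adjustment and a threshold of 0.05. The 12 dHL-60 libraries shared 1 fit. The comparison of stages used the 6 untreated libraries with time as a term, and the stage-by-response tests used all 16. DESeq2 1.42.0 was an alternative. The edgeR step was also run on simulated data in which few genes changed, as many up as down, so that run could not check the scaling. Totals of 9653374 to 20157081 counts limit low genes such as HSPA1A. Replicates differed by more than sampling noise. Libraries with the same replicate number deviated together in some pairs of groups and in opposite directions in others. The correlations were -0.44 to 0.58 over 15 pairs of groups, 6 of them over 0.1. The largest, 0.58, was between untreated cells and 1 µg/ml LTA at 4 h. The numbers were therefore not taken to pair the libraries, and whether some libraries share an origin was not tested. Coordinates and promoters are from RefSeq GRCh38.p14, and exon overlaps were read from GENCODE basic exons. The 10 genes and the lists were chosen with earlier results of these data known. Of the 91 other chaperone genes, up to 3 were named in each direction and comparison, the largest among those called with an absolute log2 fold change of at least 1. DNAJA1 was named beyond that rule at 4 h, and some named genes are given by level only.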

Additional observations from a re-analysis of the deposited data

Results flagged for a closer look

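Beside the comparisons of groups, 2 tests of a difference between effects picked out single genes. The response of dHL-60 to 10 µg/ml LTA differed between 24 h and 4 h, on the log2 scale as 24 h minus 4 h, by -0.88 for HSPD1, -0.76 for HSP90AB1, -0.67 for HSPA9, -0.63 for HSPH1 and -0.56 for HSPA8. HSPD1, HSP90AB1 and HSPA9 had lower levels with LTA at 24 h, whereas HSPA8 and HSPH1 had higher levels with LTA at 4 h. Both responses contain the untreated cells of their own time, in which all 5 genes rose between 4 and 24 h.

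The change of untreated cells from 4 to 24 h differed between the stages, on the log2 scale as dHL-60 minus uHL-60, by 1.84 for HSPA8, 1.81 for HSPE1, 1.66 for HSPD1, 1.48 for HSPH1, 1.34 for HSP90AB1, 1.06 for HSP90AA1 and 0.97 for HSPA9. All 7 were higher at 24 h than at 4 h in dHL-60 and lower at 24 h than at 4 h in the single uHL-60 libraries.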

How the results depend on the processing

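Of 1876 alternative values for single genes, 1703 kept the direction and the side of the threshold or, for uHL-60 ratios, stayed within the interval of counting error. A call was lost in 58 and gained in 20. Another 94 changed sign without a call or left that interval, and 1 was reversed. The reversed value was HSPA1A in untreated dHL-60 against uHL-60 at 4 h, which was -0.86 on the log2 scale when summed with HSPA1B and 0.11 alone. With library totals alone, 0 genes were called with 1 µg/ml at 4 h, 2 with 10 µg/ml at 4 h, 1 with 1 µg/ml at 24 h (HSP90AB1) and 3 in the difference of the 10 µg/ml responses between times, where upper-quartile scaling also gave 3. Library totals moved the summed uHL-60 ratio at 24 h to 1.044. With 1 µg/ml at 24 h, 1 gene, HSPA1A, was called without the low-count filter, and 1, again HSPA1A, in a fit over the 4 libraries alone. DESeq2 called 2 genes in the difference of the 1 µg/ml responses between times and 1 in the difference between stages at 4 h. With library totals alone the median log2 value of all genes was -0.17 for 10 µg/ml at 24 h, -0.14 for 10 against 1 µg/ml at 24 h, 0.30 and 0.21 for the differences of the 1 and 10 µg/ml responses between times, 0.13 for dHL-60 against uHL-60 and -0.31 for the response by stage at 4 h, against medians within 0.05 of 0 under composition scaling. The cause of the other changes was not tested.

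Leaving out 1 library at a time gave 2 to 4 calls with 1 µg/ml at 4 h, 4 to 5 with 10 µg/ml at 4 h, 3 to 5 with 10 µg/ml at 24 h, 0 to 1 and 3 to 4 in the differences of the 1 and 10 µg/ml responses between times, 4 to 7 for dHL-60 against uHL-60 and 2 to 4 for that comparison at 24 h alone.

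With the replicate number as a block, dHL-60 against uHL-60 kept 4 calls of 7 (HSPA9 -0.97, HSPD1 -1.56, HSPE1 -2.67 and HSPH1 -1.57), and no other count of the 10 genes changed. The numbers were not taken to pair these libraries. With uHL-60 values as deposited, the uHL-60 ratios of the 10 genes were the same, since none of their symbols had moved.

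Over all genes, another scaling changed the split of higher and lower calls. For 1 µg/ml at 24 h, upper-quartile scaling gave 1441 higher calls and 1179 lower ones, where composition scaling gave 1651 and 862. With library totals alone it was 2154 and 3169 for 10 µg/ml at 24 h, against 2797 and 2259; 216 and 200 for 10 against 1 µg/ml at 24 h, against 359 and 94; 2564 and 478 for the difference of the 1 µg/ml responses between times, against 1582 and 879; and 2902 and 1031 for that of 10 µg/ml, against 2339 and 1662. For the response by stage at 4 h it was 684 and 619, against 577 and 799 with upper-quartile scaling, 429 and 1370 with library totals alone and 824 and 479 in DESeq2. Depth limits HSPA1A, which had 44 to 142 counts a library.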
